A study of Mus musculus with 45 samples.

Results

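A panel of 50 germ cell and meiosis genes was followed by RNA-seq in mouse embryonic stem cells (mESCs), with members taken by their gene identifiers and every member found among the 55401 genes of the tables. The rule lists genes by known role and uses no measured value, although earlier results of these data were known when it was drawn up. They fall into germ cell fate and translation regulators (9 genes), the piRNA pathway and Tudor proteins (12), the chromosome axis and synaptonemal complex (10), cohesin, recombination and telomere attachment (10), and testis-expressed and other germ cell proteins (9). The 45 libraries form 15 groups of 3 in 4 experiments.

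In 3 of the experiments all cells, controls included, had both copies of Ehmt2, which encodes a histone H3 lysine methyltransferase, fused to a degron (EHMT2-dTAG, KH2 background), so that dTAG-13 triggers loss of the protein. In the time course, clones E2-17, E2-20 and E2-K71 received DMSO or dTAG-13 for 24 h or 7 d. In the washout experiment the same clones received DMSO for 15 d, dTAG-13 for 15 d, or dTAG-13 for 7 d and then DMSO for 8 d (Recovery). In the sorting experiment, EHMT2-dTAG cells with a MERVL-GFP reporter received DMSO or dTAG-13 for 72 h and were sorted by GFP, with negative cells called mESC and positive, 2-cell-like ones called 2CLC, and the labels give these libraries replicate numbers but no clone. In the fourth experiment J1 cells, either wild type (WT) or with Dppa4 knocked out by CRISPR/Cas9 (KO), were given DMSO or the EHMT1/2 inhibitor UNC0638 for 48 h. The methods give 3 clonal lines without saying whether this holds for each genotype. The labels of these libraries give replicate numbers only. All lines grew with serum and LIF, on mouse embryonic fibroblast feeders per the methods, so RNA of other cells can be present.

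Germ cells pass through specification, migration and meiosis, in which homologous chromosomes pair, are held by the synaptonemal complex and exchange DNA at programmed breaks, while piRNAs, small RNAs loaded on PIWI proteins, keep transposons silent. Many of these genes have CG-rich promoters and are held silent outside the germline by DNA methylation and by repressors that include EHMT2 and a Polycomb complex with E2F6 and MGA-MAX. DPPA4 acts with DPPA2 on CG-rich promoters in pluripotent cells and helps to switch on 2-cell-like cells, rare members of mESC cultures that resemble the embryo at zygotic genome activation.

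Promoter windows were available for 41 of the 50 members (RefSeq, GRCm38.p6, the 250 bases before the annotated start). They were searched for 2 motifs on both strands, TCCCGC (on the other strand read as GCGGGA), the core that E2F factors recognise, and the E-box CACGTG, a palindrome that MGA-MAX can bind. TCCCGC was in 15 of the 41 members (36.6%) and in 16.9% of all 32851 windows of the same length, and CACGTG was also in 15 members (36.6%) and in 6.02% of all windows. The motifs did not overlap each other in any member, 25 members held at least 1 of them, and the members had a median of 14 CG pairs where all windows had 6. A match describes letters only and shows neither binding nor a cause, and a window without one lacks only these letters.

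The windows of 6 genes on which the results below turn are given 5′ to 3′ on the strand of the gene, with both motifs in capitals. Ddx4 (chr13:112652311-112652560, minus strand), Mael (chr1:166238745-166238994, minus), Mov10l1 (chr15:88982744-88982993, plus) and Tex19.1 (chr11:121145893-121146142, plus) are the members with a match among the 9 that were lower in Dppa4 KO cells. Dazl (chr17:50293621-50293870, minus) is a member of that group with no match, and Stk31 (chr6:49395354-49395603, plus) had the largest difference between 2CLC and mESC. A match was thus in 4 of the 9 members lower in KO cells, beside 25 of the 41 members with a window. Sohlh2, also lower in KO cells, had none.
Ddx4: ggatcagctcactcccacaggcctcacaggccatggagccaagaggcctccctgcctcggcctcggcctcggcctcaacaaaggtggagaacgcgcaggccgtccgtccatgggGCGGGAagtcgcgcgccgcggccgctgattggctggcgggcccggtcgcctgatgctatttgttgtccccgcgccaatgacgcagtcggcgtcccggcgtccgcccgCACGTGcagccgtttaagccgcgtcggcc
Mael: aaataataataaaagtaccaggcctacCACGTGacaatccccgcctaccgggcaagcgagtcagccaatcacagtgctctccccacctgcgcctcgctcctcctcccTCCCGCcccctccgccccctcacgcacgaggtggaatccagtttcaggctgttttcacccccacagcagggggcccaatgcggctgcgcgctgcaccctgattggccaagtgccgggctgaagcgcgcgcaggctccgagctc
Mov10l1: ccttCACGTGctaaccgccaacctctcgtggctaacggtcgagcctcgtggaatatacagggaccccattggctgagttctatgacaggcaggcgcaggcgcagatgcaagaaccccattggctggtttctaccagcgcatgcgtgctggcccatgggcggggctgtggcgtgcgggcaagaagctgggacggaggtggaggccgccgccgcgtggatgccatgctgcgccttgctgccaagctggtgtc
Tex19.1: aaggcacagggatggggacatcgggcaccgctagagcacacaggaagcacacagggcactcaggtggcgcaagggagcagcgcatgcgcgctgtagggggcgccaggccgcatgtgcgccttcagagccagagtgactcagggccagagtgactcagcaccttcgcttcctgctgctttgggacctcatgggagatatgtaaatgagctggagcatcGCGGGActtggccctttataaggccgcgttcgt
Dazl: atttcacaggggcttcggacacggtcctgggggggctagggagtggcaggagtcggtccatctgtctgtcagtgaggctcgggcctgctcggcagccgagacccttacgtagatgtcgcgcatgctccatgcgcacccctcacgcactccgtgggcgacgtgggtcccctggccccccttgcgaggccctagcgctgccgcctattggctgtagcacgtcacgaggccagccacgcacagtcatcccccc
Stk31: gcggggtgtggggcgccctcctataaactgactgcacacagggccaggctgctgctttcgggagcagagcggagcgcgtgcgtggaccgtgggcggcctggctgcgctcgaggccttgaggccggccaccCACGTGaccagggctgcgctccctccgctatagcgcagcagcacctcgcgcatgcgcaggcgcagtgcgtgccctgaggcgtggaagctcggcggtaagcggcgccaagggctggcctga

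The time course, washout and sorting tables give only the authors' mean of each group in normalized counts (counts divided by size factors), so no spread and no test can be given there. A difference in those experiments is log2((mean + 1)/(mean + 1)) and is called past the fold at an absolute value of at least 1 with the higher mean at least 10. Where just 1 of the means compared reached 10, the gene passed through that group and could only count as higher there. The Dppa4 experiment gives normalized counts for each of its 12 libraries, with 8399885 to 12710949 gene reads per library, and 1 read was worth about 1 normalized count. There a gene is called by limma on log2(normalized count + 1) at an adjusted p under 0.05 (Benjamini-Hochberg over all 17258 genes tested) and an absolute log2 difference of at least 1. The 4 experiments were normalized separately, and levels are compared only within an experiment.

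Most of the panel was detected. A group mean of 10 was reached by 41 members in the time course, 39 in the washout experiment and 41 in the sorted cells, and by 45 in at least 1 of them. The 5 that never reached it were Nanos2 (a translational repressor of spermatogonia), Tdrd6 (a Tudor protein of later spermatogenesis), Tex12 (a central element protein), Spo11 (the enzyme that cuts DNA in meiosis) and Terb1 (a protein of the meiotic telomere complex), and their highest mean was 9.90. Per kilobase of exon, with DMSO at 24 h, Tex19.1 had 1038 normalized counts and the next members, Syce2 and Stag3, had 228 and 210. Spo11 was listed at 0 in that group. The Dppa4 transcript stood at 700 to 920 normalized counts in the 6 WT libraries and at 0 in all 6 KO libraries, whereas Ehmt2 mRNA, which a degron does not target, gives no check of EHMT2 loss.

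In Dppa4 KO cells with DMSO, 9 members had lower RNA than in WT cells and none was called higher. Of the 17258 genes tested, 3.1% were lower and 1.33% higher by the same rule (4.43% in all). The 9 were the germ cell regulators Sohlh2, Ddx4 and Dazl, the piRNA genes Mael and Mov10l1, the synaptonemal complex genes Syce1 and Syce3, and the paralogs Tex19.1 and Tex19.2. Of the panel, 33 members passed the filter on low reads and were tested, and 17 did not. Sohlh2, Ddx4, Dazl, Mael, Mov10l1, Syce1 and Syce3, with few or no reads in KO, passed it only through WT libraries. They could only be called lower, and they enter the median. The median log2 difference over the 33 was -0.84, beside -0.03 over all genes tested. KO and WT groups did not overlap for 13 members downward and 4 upward. Over all genes tested this held for 2781 downward and 2325 upward (29.6%). In bulk libraries, fewer cells that express a gene and less RNA per cell cannot be told apart.

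Sohlh2 encodes a basic helix-loop-helix factor needed in spermatogonia and oocytes. Its normalized counts were 145, 65.2 and 92.7 in the WT libraries and 0 in all 3 KO libraries. The groups did not overlap, and RNA was at least 96.0-fold lower in KO cells, taking 3 reads over the KO group as the limit (log2 difference -6.60 ± 0.60 SE, n = 3 per group, limma adjusted p = 1.68e-05).

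Ddx4, the germ cell RNA helicase also called Vasa, had 11.6, 19.7 and 18.4 in WT and 0 in each KO library. That is at least 15.7-fold lower (log2 -4.10 ± 0.79, limma adjusted p = 0.00671). Dazl, an RNA-binding protein that activates translation in germ cells, had 9.31, 9.84 and 16.6 in WT and 0 in each KO library. Its bound was at least 11.3-fold (log2 -3.65 ± 0.84, limma adjusted p = 0.0176), and its call was lost when WT replicate 2 or 3 with DMSO was left out (adjusted p up to 0.0618 over its alternatives).

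Among the piRNA genes, Mael, a component of the germ granule, had 72.1, 24.6 and 86.5 in WT and 0, 9.17 and 0 in KO. It was 20.0-fold lower with no overlap of the groups (log2 -4.66 ± 0.86, limma adjusted p = 0.0055). Mov10l1, the RNA helicase that feeds transcripts into piRNA production, had 17.5, 25.8 and 17.5 in WT and no read in KO. It was at least 19-fold lower (log2 -4.39 ± 0.78, limma adjusted p = 0.00422).

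Both called synaptonemal complex genes encode central element proteins. Syce1 had 52.4, 36.9 and 67.3 in WT and 2.94, 0 and 0 in KO, where the group held 3 reads. The ratio was 53.3 with a 95% counting interval of 17.6 to 257, which covers counting error only (log2 -5.03 ± 0.68, limma adjusted p = 0.000677). Syce3 had 14.0, 9.84 and 24.5 in WT and 0 in each KO library, at least 15.3-fold lower. Its log2 difference was -4.00 ± 0.90 (limma adjusted p = 0.0161), a call lost without WT replicate 3 with DMSO (adjusted p up to 0.0614).

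Tex19.1 and its neighbour Tex19.2, mammalian-specific proteins that restrain transposons in the germline, lay lower without reaching 0. Tex19.1 had 1090, 1515 and 2101 in WT and 212, 477 and 270 in KO. This 4.90-fold difference (log2 -2.32 ± 0.36, limma adjusted p = 0.00168) concerned the member with the highest level per length. Tex19.2 had 12.8, 29.5 and 43.7 in WT and 1.96, 6.11 and 6.96 in KO. It was 5.72-fold lower (log2 -2.27 ± 0.53, limma adjusted p = 0.0186), and that call was lost without WT replicate 2 or 3 or KO replicate 1 with DMSO (adjusted p up to 0.0894). The 2 genes are paralogs on chromosome 11, and a read that fitted both was put at random.

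**Figure D1:**
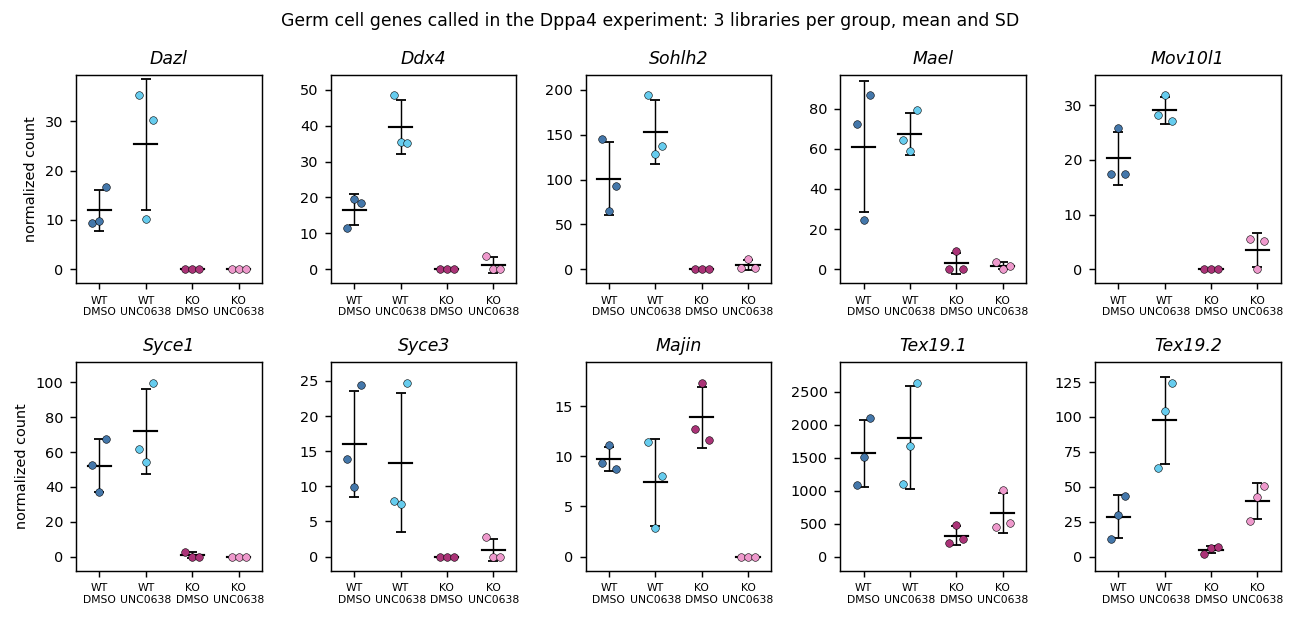
Normalized counts (vertical axes, each from 0) of the 10 members called in at least 1 comparison of the Dppa4 experiment, with 1 point per library and the mean and SD of 3 libraries per group. With DMSO, Sohlh2, Ddx4, Dazl, Mov10l1 and Syce3 were at 0 in all 3 KO libraries, and Tex19.1 lay between 212 and 477 there and between 1090 and 2101 in WT.

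The remaining germ cell fate regulators were tested and not called. Dnd1, an RNA-binding survival factor of primordial germ cells, had 369 to 433 in WT and 302 to 388 in KO. Ythdc2 and Meioc, partners that keep cells in meiotic prophase, had 24.4 to 43.1 against 21.4 to 31.3 and 48.0 to 100.5 against 14.7 to 95.2. Stra8, the retinoic acid-induced gene of meiotic entry, had 4.92 to 18.4 in WT and 2.94 to 27.5 in KO, and Nanos3, a survival factor of primordial germ cells, had 12.8 to 40.2 and 6.85 to 20.9. In all of these the groups overlapped.

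None of the 7 tested genes of cohesin, recombination and telomere attachment was called with DMSO, and their median log2 difference was 0.08. Stag3, a meiotic cohesin subunit, had 119 to 149 in WT and 175 to 273 in KO, and Dmc1, the meiotic recombinase, had 25.8 to 32.6 and 25.5 to 39.1. Tex14, of the bridges between germ cells, had 108 to 148 in WT and 212 to 279 in KO (limma adjusted p = 0.197). Brdt, a bromodomain protein of the testis, pointed upward without passing the test (0, 0 and 3.5 in WT, 8.81, 12.2 and 10.4 in KO, log2 2.79 ± 0.85, limma adjusted p = 0.0576). Slc25a31, the ADP/ATP carrier of germ cells, had 1.16, 4.92 and 13.1 in WT and 0 in KO (limma adjusted p = 0.0953), and edgeR and DESeq2 on the recovered reads both called it lower.

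With UNC0638, 8 members were lower in KO than in WT and none higher, where 2.31% of all genes were lower and 0.973% higher (3.29% in all). This comparison uses other libraries than that with DMSO, from lines with the same labels. The 7 members lower in both were Sohlh2, Syce1, Mael, Ddx4, Dazl, Mov10l1 and Tex19.1, which is 7 of 9 and 7 of 8. All of these but Tex19.1 passed the read filter only through WT libraries, so their direction was set by the filter in both comparisons. The median over the 33 members was -1.31, and over all genes -0.04. Groups did not overlap for 16 members downward and 1 upward, and for 2174 genes downward and 1998 upward (24.2% of all tested).

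Syce1 had 61.6, 54.2 and 99.8 in WT and 0 in each KO library with UNC0638, at least 75.2-fold lower (log2 -6.14 ± 0.68, limma adjusted p = 0.000114). Sohlh2 had 194, 128 and 137 in WT and 1.84, 11.8 and 1.75 in KO, 29.8-fold lower (log2 -5.03 ± 0.60, limma adjusted p = 0.000188). Both were below every WT library, as under DMSO. Mael was 37.3-fold lower (64.3, 58.9 and 79.0 against 3.68, 0 and 1.75), Ddx4 32.4-fold lower (48.4, 35.5 and 35.1 against 3.68, 0 and 0) and Dazl at least 26.4-fold lower (35.2, 10.3 and 30.3 against 0 in each). Their limma adjusted p-values were 0.0051, 0.00414 and 0.00711.

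The other 3 calls with UNC0638 were less stable. Mov10l1 (28.2, 31.8 and 27.1 in WT, 5.52, 0 and 5.24 in KO, 8.10-fold, limma adjusted p = 0.0317) was lost without any 1 of the WT libraries or KO replicate 2, with edgeR on recovered reads, with a pseudocount of 0.5 and without the low filter (adjusted p up to 0.127). Majin, which ties telomeres to the nuclear envelope in meiosis, had 11.4, 2.80 and 7.98 in WT and 0 in each KO library, at least 7.75-fold lower (limma adjusted p = 0.0328), and was lost without WT replicate 1 or 3 or KO replicate 3 and with a pseudocount of 4 (up to 0.115). Tex19.1 had 1101, 1681 and 2639 in WT and 455, 1004 and 518 in KO (2.74-fold, limma adjusted p = 0.03), and was lost without WT replicate 2 or 3 or KO replicate 1 or 3 (up to 0.135). Without WT replicate 3 the count of members called was 5 in place of 8.

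Markers of the 2-cell-like state moved with the genotype. The summed level of 19 such markers, among them the Zscan4 genes and Zfp352, was 206 to 3163 normalized counts in WT with DMSO and 1646 to 12359 in WT with UNC0638, while 5 KO libraries had 0 and the sixth 4.37. The summed level of 10 feeder fibroblast markers was 2185 to 3351 in WT and 1411 to 2017 in KO, a range without overlap, and that of 8 pluripotency markers was 42939 to 60546 in WT and 55384 to 65988 in KO. The part of these cells in the lower members was not tested.

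Among companion genes of the same pathways, 9 further piRNA genes and 22 further meiosis genes were listed from known roles. With DMSO, 1 of the 6 tested piRNA genes was lower and 1 higher in KO, and 1 of the 14 tested meiosis genes was lower. Of all genes tested, 3.1% were lower and 1.33% higher, and the companions' counts were not tested against this. Tdrd12, a Tudor protein of piRNA production, had 114, 173 and 197 in WT and 44.0, 33.6 and 19.7 in KO (log2 -2.31 ± 0.33, limma adjusted p = 0.001). Exd1, of the same pathway, had 27.9, 14.8 and 24.5 in WT and 67.5, 53.0 and 63.8 in KO (log2 1.46 ± 0.40, limma adjusted p = 0.0383). Ankrd31, a regulator of meiotic breaks, had 14.0, 8.61 and 15.7 in WT and 0 in each KO library (log2 -3.74 ± 0.84, limma adjusted p = 0.0158). The same 3 genes were called in the same directions with UNC0638, where 2.31% of all genes were lower and 0.973% higher. Ankrd31 passed the read filter only through WT libraries and could only be called lower.

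With UNC0638 few members were called. In WT cells limma called none of them and none of the 17258 genes (0%). At an unadjusted p under 0.05 there were 4 members and 1504 genes, edgeR also called none, and DESeq2 called 13 genes higher and 1 lower with no member among them. Tex19.2 had 12.8, 29.5 and 43.7 under DMSO and 63.4, 105 and 125 under UNC0638 (3.40-fold, log2 1.83 ± 0.53, 95% interval 0.71 to 2.95, limma adjusted p = 0.563). Ddx4 had 11.6, 19.7 and 18.4 against 48.4, 35.5 and 35.1 (2.4-fold, limma adjusted p = 0.598), and Ythdc2 had 24.4, 43.1 and 40.2 against 92.5, 45.8 and 78.2 (2.01-fold, limma adjusted p = 0.563). In these genes and in Mov10l1 (1.43-fold) every library with UNC0638 lay above every library with DMSO, and Dnd1 lay below (1.57-fold lower), without passing the test. Such a separation held for 4 members upward and 1 downward of the 33 tested. Over all 17258 genes it held for 1701 upward and 1733 downward (19.9%).

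Whether replicate numbers pair the WT libraries is uncertain. Between same-numbered ones Sohlh2 was higher with UNC0638 in 3 of 3 (145 and 194, 65.2 and 128, 92.7 and 137), as was Dazl (9.31 and 35.2, 9.84 and 10.3, 16.6 and 30.3). With replicate number as a block, the 95% interval of the log2 difference ran from -0.60 to 1.89 for Sohlh2 and from -0.92 to 2.73 for Dazl, so that neither no change nor one of 2-fold was outside it. The block called no member in WT cells, Tex19.2 included (limma adjusted p = 0.325 with the block).

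In KO cells with UNC0638, Tex19.2 was called higher and Majin lower than with DMSO, where 0.411% of all genes were higher and 0.0521% lower (0.464% in all). Tex19.2 went from 1.96, 6.11 and 6.96 to 25.8, 43.0 and 50.6 without overlap, 7.94-fold (log2 2.83 ± 0.53, limma adjusted p = 0.0358). Majin went from 12.7, 17.3 and 11.6 to 0 in each library, at least 14.5-fold lower (log2 -3.88 ± 0.73, limma adjusted p = 0.0358). Each call was lost without the low filter and when any of several single libraries was left out: WT replicate 1 or 3 with UNC0638, KO replicate 1 with DMSO, and KO replicate 2 or 3 with UNC0638 for both, WT replicate 2 with UNC0638 for Tex19.2, and KO replicate 2 with DMSO for Majin (adjusted p up to 0.161 and 0.126). The KO libraries with DMSO are the controls here and the compared group above, so the low Tex19.2 and high Majin values in them enter both.

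Sohlh2 had 0 in the KO libraries with DMSO and 1.84, 11.8 and 1.75 with UNC0638 (limma adjusted p = 0.096), below the lowest WT value of 65.2. Tex19.1 had 212, 477 and 270 against 455, 1004 and 518 (limma adjusted p = 0.177), and the fit with replicate number as a block called it higher, giving 3 members in place of 2. That fit assumes that KO libraries pair by number, which was not established (correlations of 0.154, -0.092 and 0.013). Whether the UNC0638 effect differed between KO and WT was tested directly, and limma called no gene of 17258 (0%). At an unadjusted p under 0.05 limma had 1076 genes and 1 member, Majin. There edgeR had 1032 genes and 5 members, and DESeq2 1184 genes and 3 members, and neither called any. DESeq2 gave an adjusted p to only 3205 genes and 1 member, so it could call no other member. The difference for Tex19.2 was 1.00 ± 0.75 on the log2 scale (limma adjusted p = 0.792).

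Sorted 2-cell-like cells had more RNA of many members than GFP-negative mESCs. With DMSO, 14 of the 40 members with a group mean of 10 were higher past the fold and 3 were lower, where 17% of all such genes were higher and 9.42% lower (26.4% in all). The median log2 difference was 0.30 for the members and -0.02 for all genes. By group, 5 of 8 testis-expressed genes, 4 of 9 piRNA genes, 3 of 8 synaptonemal complex genes, 1 of 7 recombination genes and 1 of 8 fate regulators were higher. These are differences of the authors' means without replicate error. Of the members past the fold, Prdm9, Sycp1, Sycp2, Taf7l and Tdrd9 had means under 10 in mESC. They passed the filter only through 2CLC and could only count as higher. Rec8 and Majin passed it only through mESC and could only count as lower.

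The testis-expressed genes led. Stk31, a kinase-like protein with a Tudor domain, had an authors' mean of 12.7 in mESC and 162 in 2CLC with DMSO, a 12.7-fold difference that was 12.0-fold with dTAG-13 (19.6 and 234). Slc25a31 had 22.1 and 179 (8.08-fold) with DMSO, and Taf7l, a TFIID subunit of spermatogenesis, had 8.49 and 53.5 (6.30-fold). Tex19.1, already high in mESC at 901, reached 3302 in 2CLC (3.67-fold), and Tex19.2 had 36.6 and 222 (6.05-fold). All 5 were past the fold with dTAG-13 as well.

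Among the fate regulators the higher level was Dazl's, at 132 in mESC and 961 in 2CLC (7.29-fold). Ddx4 had 139 and 158, Sohlh2 567 and 434, Meioc 413 and 399, Ythdc2 187 and 130, and Dnd1 254 and 177, all within the fold.

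In the piRNA pathway Mael had 11.4 in mESC and 94.7 in 2CLC (8.31-fold) and Tdrkh, which anchors piRNA trimming at mitochondria, 67.2 and 237 (3.53-fold). Tdrkh shares 36.7% of its exon bases with Oaz3 on the opposite strand, and the counter was run with its default settings, whose handling of strand is not given in the sources used here, so its reads may not be separated from those of Oaz3. Tdrd5, a germ granule protein, had 15.4 and 36.3, and Tdrd9, the Tudor helicase of the pathway, 3.76 and 12.1. Piwil4 (MIWI2), the PIWI protein of the nucleus, went the other way with 26.9 and 12.6 (2.14-fold lower in 2CLC), while Piwil2 (MILI), its cytoplasmic partner, had 388 and 310.

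For the chromosome axis, Sycp1, the transverse filament of the synaptonemal complex, had 6.12 in mESC and 49.3 in 2CLC (8.07-fold). Syce1 had 81.9 and 241 (2.95-fold) and Sycp2, of the lateral element, 5.52 and 12.4. Prdm9, the methyltransferase that places recombination hot spots, had 7.92 and 39.5 (4.99-fold). Rec8, the meiotic cohesin subunit that holds sister chromatids, was 5.29-fold lower in 2CLC (33.2 and 6.27), and Majin was 2.34-fold lower (10.4 and 4.43).

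With dTAG-13, 12 of 38 members were higher in 2CLC and 4 lower, where 16% of all genes were higher and 7.55% lower (23.6% in all). The 2 mESC-against-2CLC comparisons use different sorted libraries, and 11 members were higher in both: Dazl, Mael, Prdm9, Slc25a31, Stk31, Sycp1, Taf7l, Tdrd9, Tdrkh, Tex19.1 and Tex19.2 (11 of the 14 and 11 of the 12). Asz1, a mitochondrial scaffold of the piRNA pathway, was past the fold with dTAG-13 only (4.44 and 12.95, and 0.466 and 5.17 with DMSO). Sohlh2 was lower in 2CLC with dTAG-13 (986 and 394), as were Piwil4 (54.7 and 9.45, 5.79-fold), Hormad2, an axis protein (75.8 and 36.1), and Rec8 (18.4 and 5.40). Sycp1, Taf7l and Tdrd9 passed the filter only through 2CLC with both treatments, so their agreement in direction was set by it. With dTAG-13, Asz1 also passed only through 2CLC, and Piwil4 and Rec8 passed only through mESC. Scaling each group to the same total moved the median of all genes by -0.42 with dTAG-13 and -0.16 with DMSO, and gave 11 higher and 6 lower members with dTAG-13 and 13 and 4 with DMSO, and among all genes with dTAG-13 a split of 2156 higher and 3398 lower in place of 2927 and 1378 (2823 and 2370 in place of 3113 and 1724 with DMSO).

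**Figure D2:**
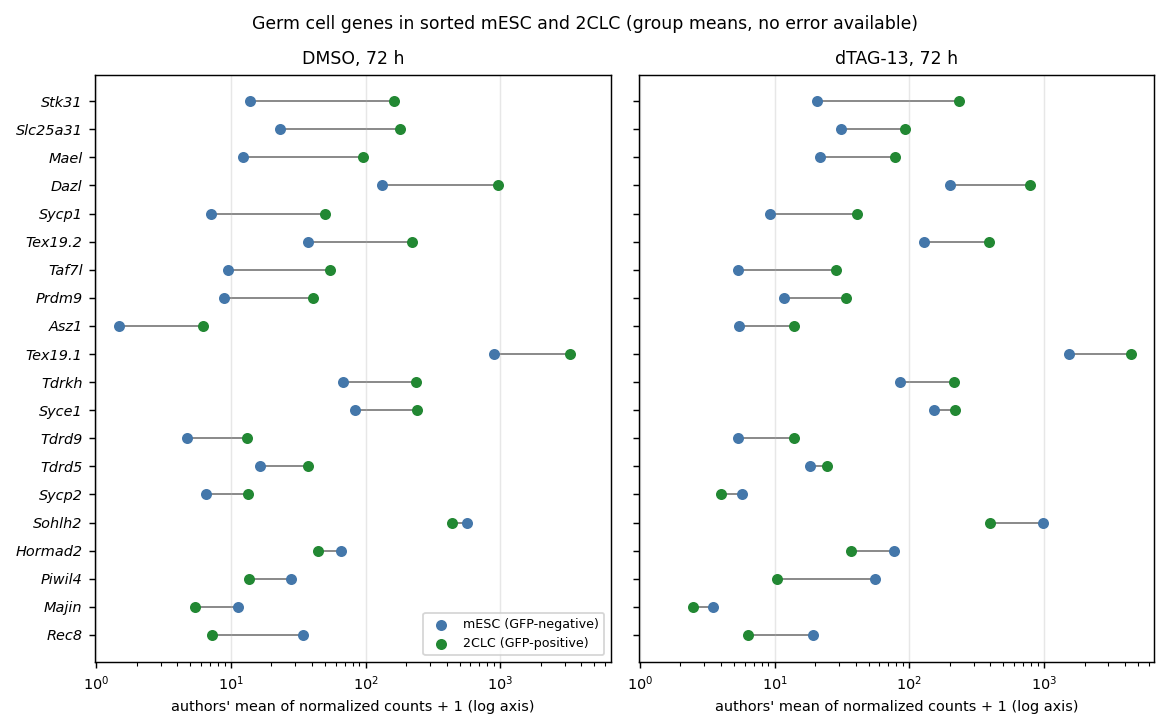
Authors' means of normalized counts plus 1 (horizontal log axis) in GFP-negative mESC and GFP-positive 2CLC for the 20 members past the fold in either comparison, with DMSO at left and dTAG-13 at right, 1 point per group mean and no error bars because no libraries are given. Stk31 and Dazl lay to the right in 2CLC in both panels (12.7 to 162 and 132 to 961 with DMSO), and Rec8 and Piwil4 lay to the left.

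The sort separated the populations by their own markers. All 19 2-cell-like markers were higher in 2CLC with DMSO, with a summed level of 272648 against 1483 in mESC, and the 8 pluripotency markers summed to 29164 against 50505. The 10 feeder markers summed to 458 in mESC and 1124 in 2CLC with DMSO, and to 866 and 1978 with dTAG-13, and their part in the differences was not tested.

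Of the 9 members lower in KO with DMSO, 5 were among the 14 higher in 2CLC with DMSO (55.6% of the 9 and 35.7% of the 14): Dazl, Mael, Syce1, Tex19.1 and Tex19.2. Over all genes, 150 of the 535 lower in KO were higher in 2CLC, which is 28% of the 535 and 4.82% of the 3113 higher in 2CLC, and the members' share was not tested against this. Of the 14, 10 passed the read filter in the Dppa4 experiment. Sohlh2, Ddx4 and Mov10l1, which had no reads in KO with DMSO, were within the fold between 2CLC and mESC with DMSO (567 and 434, 139 and 158, 37.2 and 62.8), and Syce3 had means under 10 in all sorted groups. TCCCGC or CACGTG was in the promoter window of 9 of the 14, beside 25 of 41 in the whole panel. Dppa2, the partner gene, had 437 in mESC and 4063 in 2CLC, and Dppa4 516 and 608.

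Of the companion genes, 4 of 16 measured meiosis genes were higher in 2CLC with DMSO and none of 6 piRNA genes, where 17% of all genes were. Ankrd31 had 7.54 in mESC and 26.7 in 2CLC, Ccnb1ip1, a crossover factor, 142 and 366, Hspa2, a chaperone of spermatocytes, 197 and 497, and Boll, a relative of Dazl, 5.75 and 16.4.

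Treatment with dTAG-13 for 72 h moved few members within each sorted population. In mESC, 1 of 36 members was higher and 3 were lower, where 5.93% of all genes were higher and 2.58% lower (8.51% in all). Tex19.2 had an authors' mean of 36.6 with DMSO and 127 with dTAG-13 (3.46-fold). Meioc was 3.02-fold lower (413 and 137), and Stra8 (10.3 and 4.42) and Majin (10.4 and 2.46) were lower at means close to 10. Stra8 and Majin passed the filter only through DMSO and could only count as lower.

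In 2CLC, 2 of 38 members were higher with dTAG-13 and 2 lower, where 5.99% and 3.04% of all genes were (9.03% in all). Asz1 (5.17 and 12.95) and Nanos3 (9.88 and 22.7) were higher, and Meioc (399 and 191) and Sycp2 (12.4 and 3.00) lower. Asz1 and Nanos3 passed the filter only through dTAG-13 and could only count as higher. Sycp2 passed it only through DMSO and could only count as lower. With each group scaled to the same total, a shift of -0.25 in the median of all genes, no member was higher and 5 were lower, and the split of all genes was 689 higher and 1000 lower in place of 1095 and 555. Meioc was thus lower with dTAG-13 in both populations, and Tex19.2 in 2CLC had 222 and 388, within the fold.

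The dTAG-13 effect itself was compared between 2CLC and mESC as a difference of log2 differences. It was lower in 2CLC past the fold for 5 members, Mael (-1.10), Piwil4 (-1.38), Syce1 (-1.01), Slc25a31 (-1.36) and Sycp2 (-1.56), and higher for none, where 3.4% of all genes were higher and 8.15% lower (11.5% in all). Slc25a31, for example, had 22.1 and 29.9 in mESC and 179 and 92.7 in 2CLC with DMSO and dTAG-13. This rests on 4 means per gene with no test, and the same-total scaling gave 12 members, with a split of all genes of 353 higher and 2248 lower in place of 647 and 1553.

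In unsorted cells, 24 h of dTAG-13 left the panel near its control. Of 41 members, 2 were lower past the fold and none higher, where 2.11% of all genes were lower and 3.58% higher (5.7% in all). Stag3 had an authors' mean of 1205 with DMSO and 574 with dTAG-13 (2.10-fold lower), and Tex101, a surface protein of germ cells, 17.6 and 6.46. Dazl had 290 and 233, Ddx4 228 and 301, Sohlh2 306 and 382, Tex19.1 1943 and 1565, and Tex19.2 75.9 and 83.7, all within the fold. In the same libraries all 16 of the 2-cell-like markers with a mean of 10 were higher, with summed levels of 341 and 4032.

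After 7 d, 6 of 39 members were lower past the fold and none higher, where 4.56% of all genes were lower and 5.38% higher (9.95% in all). Of these, 4 belonged to the 7 measured genes of cohesin, recombination and telomere attachment. Meiob, a single-strand DNA-binding protein of meiotic repair, had 25.4 with DMSO and 5.18 with dTAG-13 (4.91-fold), Dmc1 180 and 74.5 (2.42-fold), Stag3 735 and 315 (2.33-fold), and Rec8 199 and 94.9 (2.09-fold). Meioc had 611 and 186 (3.29-fold) and Stra8 42.7 and 17.5 (2.44-fold), both of meiotic entry and prophase. The median over the members was -0.31, and over all genes 0.01, while 2-cell-like markers summed to 515 with DMSO and 12141 with dTAG-13.

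The DMSO controls of 24 h and 7 d also differed from each other. At 7 d, 4 of 41 members were lower and none higher, where 1.49% of all genes were lower and 0.862% higher (2.36% in all): Tdrd9 (15.9 and 5.15), Mov10l1 (258 and 128), Nanos3 (20.6 and 9.41) and Tex101 (17.6 and 6.97). The DMSO groups of 24 h and 7 d are also the controls of the dTAG-13 comparisons. Tex101 had 6.46 and 7.75 with dTAG-13 at 24 h and 7 d, so its value of 17.6 with DMSO at 24 h stood alone among the 4 groups.

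At 15 d, 3 of 38 members were higher with dTAG-13 and none lower, where 5.48% of all genes were higher and 0.856% lower (6.33% in all). Sohlh2 had 214 with DMSO and 557 with dTAG-13 (2.61-fold), and Tex19.2 37.7 and 102 (2.72-fold). Smc1b, a meiotic cohesin subunit, had 3.59 and 14.5, a difference near the count limit. The genes lower at 7 d were within the fold here: Meioc had 223 and 192, Dmc1 127 and 111, Stag3 182 and 121, Rec8 48.9 and 37.0, and Stra8 96.5 and 57.3, while Meiob had means under 10.

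In Recovery, after 7 d of dTAG-13 and 8 d without it, Sohlh2 and Tex19.2 were near the DMSO level. Sohlh2 had 180 in Recovery, beside 557 with dTAG-13 for 15 d and 214 with DMSO, and Tex19.2 had 38.7 beside 102 and 37.7. This experiment has no group from the start of the washout, so a fall during it was not measured. In the time course, 7 d of DMSO and dTAG-13 gave 199 and 332 for Sohlh2. For Tex19.2 they gave 38.8 and 73.6, and both genes were within the fold. Against dTAG-13 for 15 d, 5 of 39 members were higher in Recovery and 3 lower, where 1.44% of all genes were higher and 6.99% lower (8.42% in all). The lower ones were Sohlh2, Tex19.2 and Piwil4 (83.3 and 35.6), and the higher ones were Meioc (192 and 459), Stra8 (57.3 and 121), Sycp3, of the lateral element (20.6 and 51.5), Tex11, an X-linked crossover factor (24.1 and 50.2), and Tex15, of transposon silencing (24.9 and 65.0).

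Recovery did not match the DMSO group for every member. Against DMSO for 15 d, 3 of 38 were higher and none lower, where 1.6% of all genes were higher and 1.25% lower (2.85% in all). Meioc had 223 and 459 (2.06-fold), Tex15 30.3 and 65.0 (2.15-fold) and Smc1b 3.59 and 18.1. Recovery is shared by both comparisons, so its high Meioc and Tex15 means enter each. Sycp3 shares 52.2% of its exon bases with Chpt1 on the opposite strand and is uncertain for that reason. Feeder markers summed to 3042 with DMSO, 4069 with dTAG-13 and 1224 in Recovery, and 6 of the 8 measured were lower in Recovery than with DMSO, and their part in these differences was not tested.

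**Figure D3:**
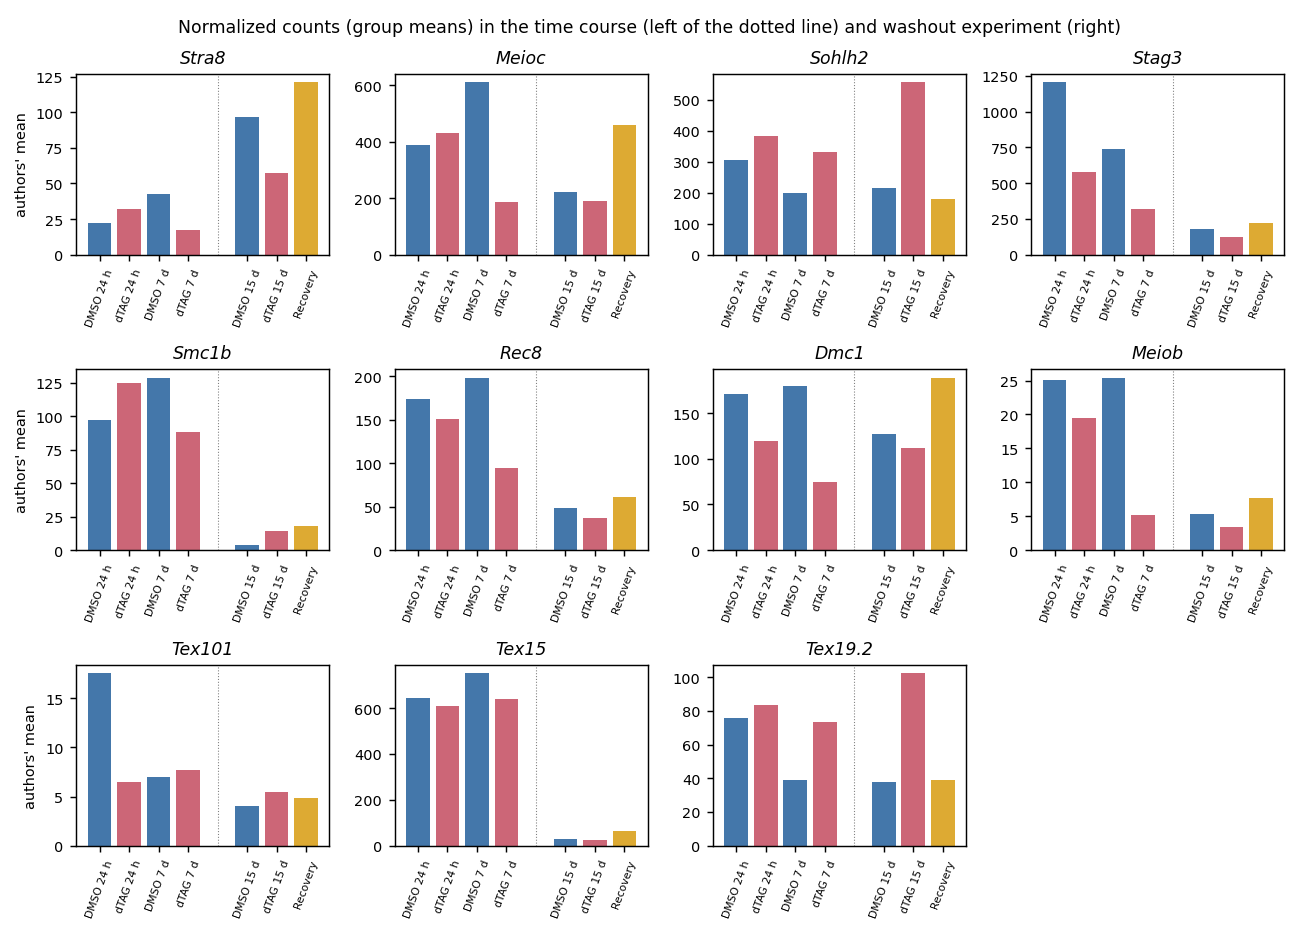
Authors' means of normalized counts (vertical axes from 0) for the 11 members past the fold with dTAG-13 against DMSO at 24 h, 7 d or 15 d or in Recovery against DMSO, with the time course left and the washout experiment right of the dotted line in each panel, 1 bar per group and no error bars because no libraries are given. Within the washout experiment Sohlh2 and Tex19.2 had their highest bar with dTAG-13 at 15 d (557 and 102), and within the time course Meioc had its lowest bar with dTAG-13 at 7 d (186).

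Of the 10 members called in the Dppa4 experiment, 8 were also past the fold in at least 1 comparison of means, all but Ddx4 and Syce3, and Sohlh2, Tex19.2 and Majin were so for dTAG-13 against DMSO. Mov10l1 was so only between the DMSO controls of 24 h and 7 d. The matching share over all genes was not computed. Majin was lower with dTAG-13 in sorted mESC (10.4 and 2.46, at the count limit) and lower with UNC0638 in KO cells, a call lost in 7 alternatives. In WT cells UNC0638 gave no call for it (9.31, 11.1 and 8.74 with DMSO, 11.4, 2.80 and 7.98 with UNC0638). Sohlh2 had no reads in Dppa4 KO cells with DMSO, was higher with dTAG-13 at 15 d and was lower in 2CLC than in mESC with dTAG-13. Tex19.2 was lower in Dppa4 KO cells, higher with dTAG-13 at 15 d and in sorted mESC, higher in 2CLC with either treatment, and higher with UNC0638 in KO cells. At 24 h of dTAG-13 both were within the fold. Meioc, by contrast, was lower with dTAG-13 at 7 d and in both sorted populations, and was not called in the Dppa4 experiment.

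The remaining members stayed within the fold in all comparisons of group means and were not called in the Dppa4 experiment. Of all 50 members, 32 were past the fold in at least 1 comparison of means, and 10 were called in the Dppa4 experiment. The share of all genes that met either condition was not computed. Single comparisons of means put 2.36% to 26.4% of all genes past the fold, and single Dppa4 comparisons called 0% to 4.43%. Over all groups of means, Piwil2 ranged from 304 to 607, Syce2, a central element protein, from 136 to 1323, Tex14 from 85.3 to 463, Dnd1 from 166 to 284 and Ythdc2 from 130 to 300, ranges that span experiments scaled separately. Tdrd1 and Tdrd7, Tudor proteins of germ granules, ranged from 23.3 to 137 and from 14.1 to 57.8, Hormad1, of the chromosome axis, from 24.3 to 60.6, Mei4, which helps make meiotic breaks, from 10.4 to 99.9, and Brdt from 9.63 to 32.2. Piwil1 (MIWI), the PIWI protein of later spermatogenesis, reached at most 10.9.

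**Figure D4:**
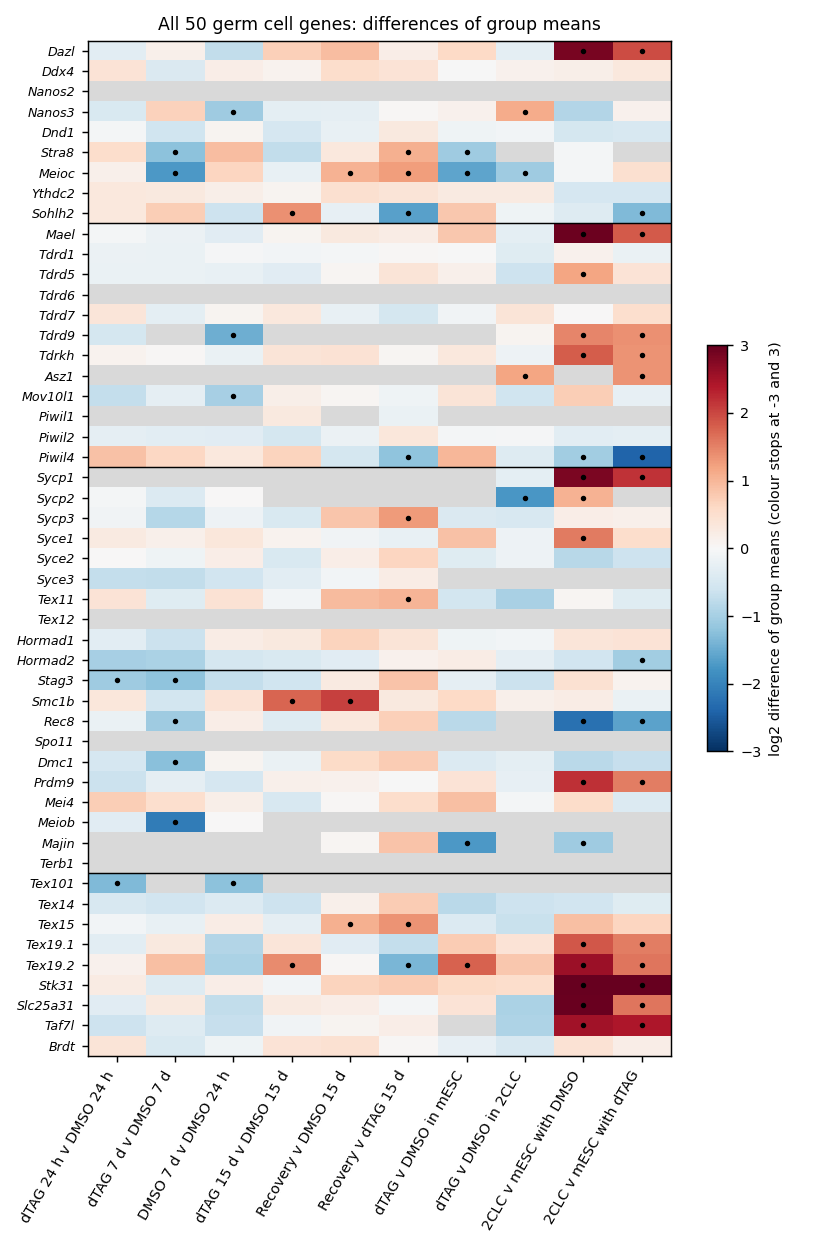
Log2 differences of the authors' means for all 50 members (rows, ordered by role, with lines between the 5 groups) in 10 comparisons (columns), red where the group named before v was higher, blue where it was lower, colour stopping at -3 and 3, grey where neither mean reached 10, and a dot where a member was past the fold. Dots are most frequent in the 2 columns of 2CLC against mESC (17 with DMSO and 16 with dTAG-13), and 2 members have a dot at 24 h of dTAG-13.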

How the data were processed

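RNA-seq of 45 libraries in 15 groups was used. The authors trimmed reads with Trim Galore 0.6.7, aligned them to mm10 with STAR 2.7.10, keeping reads with many places and writing 1 at random, and counted genes of GENCODE vM25 and repeats with TE Counts at its default settings (how these treat strand is not given in the sources used here). The deposited signal values are counts that the authors divided by DESeq2 1.34.0 size factors, given per library for the Dppa4 experiment and as group means for the other 3. Deposited columns of the authors' own comparisons (fold changes, test statistics, p-values) were not used. Depth was 8399885 to 12710949 gene reads per library in the Dppa4 experiment and is unknown for the group means.

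From these values, limma 3.58.1 (R 4.3.3, trend) was fitted on log2(normalized count + 1) over all 12 libraries of the Dppa4 experiment after edgeR's low-count filter, and group means were compared as log2 ratios with a pseudocount of 1, so changes of low genes are understated. Whole reads were recovered for 100% of values (within 0.01 reads), and edgeR 4.0.16 and DESeq2 1.42.0 were run on them as alternatives. Deviations of same-numbered libraries correlated at 0.246, 0.103 and 0.431 in the WT pairs and at 0.154, -0.092 and 0.013 in the KO pairs. All 3 WT pairs and the first KO pair passed the minimum of 0.1. Differently numbered libraries were not compared, and the labels give no clone. Whether the numbers pair libraries is therefore uncertain, and the block was an alternative.

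The 50 members and the companion lists were chosen with earlier results of these data known. All members are named. Those past a threshold are given with their values, the others by range, and at most 4 genes per companion list are named, those with the largest change. Locations and overlaps come from GENCODE vM21 on GRCm38. A further 9 members had no promoter window in the table used.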

Additional observations from a re-analysis of the deposited data

How the results depend on the processing

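The count of members lower in KO with DMSO was 9 in the reported fit, 10 with edgeR and with DESeq2 on recovered reads, and 7 to 11 when single libraries were left out. With UNC0638 it was 8, then 7 and 9, and 5 to 8. For UNC0638 in KO the count was 2, and 0 to 3 when single libraries were left out, with 0 without WT_UNC0638 replicate 1 or 3, Dppa4KO_DMSO replicate 1, or Dppa4KO_UNC0638 replicate 2 or 3. In WT cells, and for the difference between genotypes, it was 0 throughout, although DESeq2 gave an adjusted p for that difference to only 1 member. With replicate number as a block the counts were 9, 8 and 3, and the block changed no other call. These counts rest on a pairing by number that was not established. Correlations of same-numbered libraries ran from -0.092 to 0.154 within KO and from -0.086 to 0.124 between genotypes. No called member changed sign under the alternatives run, whereas the same-total scaling turned the balance of all genes for 2CLC against mESC with dTAG-13 and for dTAG-13 in 2CLC from more higher to more lower.

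Without a filter on low values the counts were 4 at 24 h of dTAG-13 (2 reported), 6 at 15 d (3), 8 for dTAG-13 in mESC (4), 8 in 2CLC (4), 9 for the difference of the dTAG-13 effect (5) and 0 for UNC0638 in KO (2). With a mean of at least 20 they were 1 at 24 h, 1 for DMSO 7 d against 24 h (4 reported), 2 for dTAG-13 in mESC, 1 in 2CLC, 5 for KO against WT with DMSO, 4 with UNC0638 and 1 for UNC0638 in KO. A pseudocount of 0.5 gave 8 for the difference of the dTAG-13 effect, and a pseudocount of 4 gave 3 there, 1 for DMSO 7 d against 24 h and 2 for dTAG-13 in 2CLC. The same-total scaling gave 12 for the difference. At a log2 fold of 2 the counts were 0 at 24 h, 1 at 7 d, 0 for DMSO 7 d against 24 h, 0 at 15 d, 1 for Recovery against DMSO, 0 for Recovery against dTAG-13, 9 and 4 for 2CLC against mESC with DMSO and dTAG-13, and 0 for dTAG-13 in mESC, in 2CLC and for their difference. The construction of each setting (fewer or more genes, a larger fold) gives these shifts, except the scaling and pseudocount, where the cause was not tested. Group means allow no replicate block, no left-out library and no count model, so these were not run there.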

Other observations

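Markers of germ cell stages that lie outside the panel were mixed. Of 7 markers of primordial germ cells, 1 was higher and 3 were lower in 2CLC than in mESC with DMSO, past the fold, where 17% of all genes were higher and 9.42% lower. Dppa3 (Stella), a maternal and germ cell factor, had authors' means of 10.4 in mESC and 132 in 2CLC, while Tfap2c had 934 and 228, Prdm1 (BLIMP1) 198 and 57.3, and Ifitm3 808 and 345. With dTAG-13 the same 4 genes lay in the same directions. In the Dppa4 experiment Dppa3 was the only one of the 7 called, with 38.4, 83.6 and 401 in WT and 4.89, 7.13 and 3.48 in KO with DMSO (log2 -4.20 ± 0.80, limma adjusted p = 0.00667). Of all genes tested, 3.1% were lower in KO with DMSO.

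Later stages were close to undetected. Of 9 markers of late spermatogenesis and 8 of oocytes, 1 of each reached a mean of 10 in the sorted cells with DMSO, Crem (38.4 in mESC and 78.7 in 2CLC) and Gdf9 (3.95 and 14.5). At 15 d of dTAG-13, Rec114, which acts with MEI4 in making meiotic breaks and is not in the panel, had 10.9 with DMSO, 64.8 with dTAG-13 and 10.9 in Recovery, and Gpat2, of the piRNA pathway, had 16.1, 35.4 and 16.5. Msh5, of the crossover machinery, was lower with dTAG-13 at 24 h (85.5 and 32.9) and at 7 d (48.1 and 12.9).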
